A study of Mus musculus with 133 samples.

Results

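The genes described here are the nuclear genes for oxidative phosphorylation (OXPHOS), the mitochondrial machinery that makes ATP with oxygen, in mammary tumors of mice. They were all genes measured by a probeset of 1 gene whose symbol began with Nduf, Sdha, Sdhb, Sdhc, Sdhd, Uqcr, Cox4, Cox5, Cox6, Cox7, Cox8 or Atp5. The rule gave 93 genes of 19938 genes in all, each read from its probeset of highest mean. By role they were 73 subunits, of which 34 belonged to complex I, 4 to complex II, 8 to complex III, 10 to complex IV and 17 to complex V. A further 8 were tissue-specific isoforms of complex IV, 11 were assembly factors, and 1 (Cox7a2l) is a factor that joins complexes III and IV into supercomplexes. Cox7c, Ndufb4 and Ndufb4b lay only on probesets of several genes and were not described.

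There was 1 group of samples: tumors of untreated female mice from a cross of Diversity Outbred females with males carrying the MMTV-PyMT transgene, in which the viral MMTV promoter drives polyoma middle T antigen in mammary epithelium. Each animal had its own genetic background, and age was not given in the labels. The tumors were harvested near the humane endpoint and snap frozen, and no separation of tumor cells from other tissue is described. Of 133 arrays, 6 with titles ending in r were set aside, which left 1 tumor an animal, 48 with titles that begin with a running number (numbered titles) and 79 with other titles (named titles). The labels do not say what sets these apart, and gene values were centered within each or compared with the title series as a term of the model.

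OXPHOS rests on 5 protein complexes of the inner mitochondrial membrane. Complex I and complex II pass electrons from NADH and succinate to ubiquinone, complex III passes them to cytochrome c, complex IV (cytochrome c oxidase) passes them to oxygen, and complex V (ATP synthase) uses the proton gradient to make ATP. Most subunits are made in every cell, but several nuclear subunits of complex IV exist as a ubiquitous form and as a form of particular tissues, such as heart and skeletal muscle, brown fat, lung or testis. Brown fat is unusually rich in mitochondria and burns fuel for heat through the uncoupling protein Ucp1, and the mammary fat pad can hold it.

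Values were log2 intensities after RMA, and a difference of 1 is a doubling. The median of an array averaged 6.18 ± 0.034 in numbered titles (SD, n = 48) and 5.96 ± 0.076 in named titles (SD, n = 79), and 4 arrays correlated with the others at 0.933 or below, against 0.952 or above for the rest. These 4 came from animals 14094, 14095, 14312 and 14320. Of the 6 markers of luminal mammary epithelium, the lowest level among Krt8, Krt18, Epcam and Cdh1 was 10.2, of Cdh1. Elf5 ran between 8.46 and 11.7, and Krt19 between 6.83 and 11.4, so that its lowest level lay close to the median of all gene means, 6.67. To describe what the OXPHOS genes varied with, a score was made for each of 7 marker lists as the mean standardized level of its genes, and none of the lists held one of the 93 genes. Skeletal muscle was read from 12 markers, brown fat from 5, adipocytes from 7, pericytes from 7, fibroblasts from 8, the hypoxia response from 11 and proliferation from 12. A slope is the change in log2 level per SD of a score, fitted over both title series with limma, and a gene rose or fell with a score where its p adjusted by Benjamini-Hochberg over all genes was under 0.05. In these bulk samples, fewer cells of a type and less RNA per cell cannot be told apart.

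The 250 bases before the start site are printed for 6 genes, because the results turn on 2 isoform pairs and on complex II. The tissue-specific Cox8b and Cox7a1 varied most, and stand beside their ubiquitous partners Cox8a and Cox7a2. Sdha and Sdhd are complex II subunits that rose with brown fat markers, as did Sdhb, whose window is not printed. Sequences are from RefSeq on GRCm38.p6, written 5′ to 3′ on the gene's strand, and capitals mark matches on either strand to 8 motifs: NRF1 (GCGC, any base, TGCGC), GABPA/ETS (CCGGAAG), YY1 (AANATGGC), ERR (TCAAGGTCA), the myogenic E-box (CANCTG), MEF2 (CTA, any 4 bases, TAG), HIF (ACGTG) and SP (GGGCGG).
Cox8b (chr7:140900447-140900696, - strand): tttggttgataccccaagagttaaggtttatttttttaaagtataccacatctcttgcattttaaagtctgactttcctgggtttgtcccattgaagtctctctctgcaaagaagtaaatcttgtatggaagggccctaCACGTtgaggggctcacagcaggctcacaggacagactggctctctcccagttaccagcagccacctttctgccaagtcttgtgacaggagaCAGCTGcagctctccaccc
Cox8a (chr19:7217617-7217866, - strand): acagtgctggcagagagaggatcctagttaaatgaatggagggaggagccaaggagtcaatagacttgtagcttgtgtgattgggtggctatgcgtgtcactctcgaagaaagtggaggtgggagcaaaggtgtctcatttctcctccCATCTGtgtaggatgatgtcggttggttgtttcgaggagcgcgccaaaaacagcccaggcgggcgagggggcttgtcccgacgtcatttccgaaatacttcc
Cox7a1 (chr7:30183921-30184170, + strand): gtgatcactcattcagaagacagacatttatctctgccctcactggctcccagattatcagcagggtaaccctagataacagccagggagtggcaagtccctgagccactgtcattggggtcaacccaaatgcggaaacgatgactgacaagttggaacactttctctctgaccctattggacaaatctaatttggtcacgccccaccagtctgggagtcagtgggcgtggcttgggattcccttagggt
Cox7a2 (chr9:79759854-79760103, - strand): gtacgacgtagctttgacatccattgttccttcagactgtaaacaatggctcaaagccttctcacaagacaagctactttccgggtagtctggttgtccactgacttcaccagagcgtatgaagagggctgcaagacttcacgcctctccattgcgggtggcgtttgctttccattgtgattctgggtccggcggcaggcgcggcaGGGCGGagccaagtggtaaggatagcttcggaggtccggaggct
Sdha (chr13:74350241-74350490, - strand): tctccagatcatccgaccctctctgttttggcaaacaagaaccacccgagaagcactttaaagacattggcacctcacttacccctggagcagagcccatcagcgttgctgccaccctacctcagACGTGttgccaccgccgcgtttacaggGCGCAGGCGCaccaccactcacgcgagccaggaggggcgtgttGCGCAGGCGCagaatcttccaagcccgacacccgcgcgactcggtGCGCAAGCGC
Sdhd (chr9:50603850-50604099, - strand): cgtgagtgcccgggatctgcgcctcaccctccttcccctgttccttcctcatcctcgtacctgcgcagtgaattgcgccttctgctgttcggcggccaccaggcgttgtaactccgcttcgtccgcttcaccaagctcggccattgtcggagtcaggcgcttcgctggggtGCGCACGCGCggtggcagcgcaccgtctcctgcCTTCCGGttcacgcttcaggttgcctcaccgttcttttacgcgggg

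NRF1 and GABPA are activators known to act at promoters of many respiratory genes. The NRF1 motif matched the Sdha promoter at positions -98, -55 and -10 before the start. It matched the Sdhd promoter at position -79, and the GABPA/ETS motif matched Sdhd at position -46. The promoter of Sdhb, which had the largest brown fat slope of complex II (0.12), had no NRF1 match. Its 250 bases matched SP at positions -152, -132 and -104 and the myogenic E-box at position -224. In Cox8b the matches were a myogenic E-box at position -19 and a HIF motif at position -111, and no motif matched the printed Cox7a1 window. Over windows that also took in the 50 bases after the start, the table held 67 windows of 62 of the 73 subunits and 4 windows of 4 of the 8 isoforms. The NRF1, GABPA/ETS and YY1 motifs each lay in 17 of the 67 subunit windows (25.4%), and in 4.60%, 8.86% and 6.05% of all 32851 promoter windows. None of the 4 isoform windows held one of these 3 motifs, but 4 windows are few. The ERR motif lay in 2 of 67 subunit windows (2.99%), against 0.423% of all. The myogenic E-box lay in 27 of the 67 (40.3%), against 51.4% of all windows. The MEF2 motif lay in 1 of the 67 (1.49%), against 3.69% of all. HIF lay in 16 of the 67 (23.9%) and SP in 26 of the 67 (38.8%), against 19.6% and 35.7% of all. These are matches of letters and say nothing of binding in the tumors.

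Most of the 93 genes varied about as much as any gene. The SD over tumors had a median of 0.22 over the 93 genes and 0.22 over all genes, and 45 of the 93 lay above the median of all genes. Cox8b and Cox7a1 stood out, both tissue-specific isoforms. Cox8b, the form of subunit 8 found in muscle and brown fat, had an SD of 1.27, larger than 99.7% of all genes. Cox7a1, the form of subunit 7a found in the same tissues, had an SD of 0.53.

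**Figure D1:**
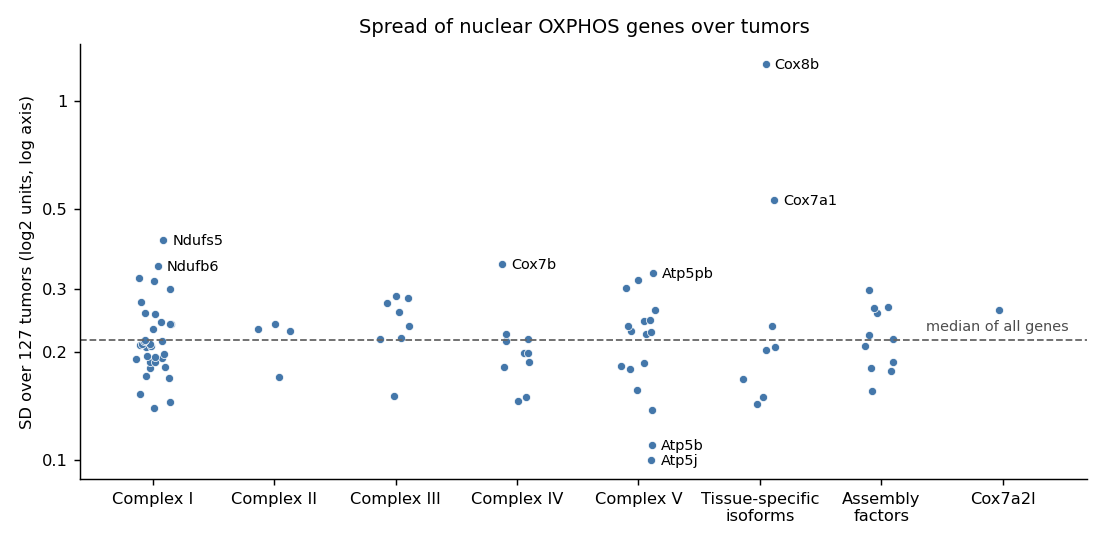
SD over 48 numbered and 79 named tumors (log2 units, log axis, values centered within title series) for each of the 93 genes, by complex or class; each point is 1 gene and the dashed line is the median of all genes, 0.22. Cox8b (1.27) and Cox7a1 (0.53) lie above every subunit, of which Ndufs5 was highest (0.41), and Atp5j (0.10) and Atp5b (0.11) lie lowest.

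Among the subunits the spread ran between 0.10 and 0.41. The steadiest were Atp5j, the coupling factor 6 of ATP synthase (0.10), and Atp5b, its catalytic beta subunit (0.11), followed by Atp5c1, the gamma subunit (0.14), Ndufa13 (0.14) and the isoform Cox4i2 (0.14). Atp5b had levels between 11.7 and 12.7 with a median of 12.4. The widest were the complex I accessory subunits Ndufs5 (0.41) and Ndufb6 (0.35), the complex IV subunit Cox7b (0.35), Atp5pb of the peripheral stalk of ATP synthase (0.33), and Ndufb8 (0.32), followed by Atp5h (0.32), another stalk subunit.

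Part of that spread lay in few arrays. Of the 73 subunits, 22 had their lowest value in animal 14320, 20 in animal 14352 and 13 in animal 14312, all with named titles. Animals 14320 and 14312 were among the 4 arrays of lowest correlation. Cox7b had a lowest value of 8.30, a median of 11.4 and a highest value of 12.0, and its lowest value without those 4 arrays was 10.8, with an SD of 0.16. Ndufb6 had a lowest value of 7.91, a median of 10.8 and a highest value of 11.6, and an SD of 0.23 without those arrays. Ndufs5 did not narrow as much: it ran between 4.33 and 7.46 with a median of 6.51, and its SD without the 4 was 0.39. The mean centered level of the 73 subunits ran between -0.53 and 0.32 over the tumors, with an SD of 0.11, and its lowest value was -0.32 without the 4 arrays.

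The mean correlation over the 28 pairs of tissue-specific isoforms was 0.17, and its median was 0.056, with a highest value of 0.62. Cox8b ran between 5.55 and 11.1 with a median of 6.99 in numbered titles, and between 5.24 and 11.0 with a median of 6.98 in named titles. The title series overlapped over nearly the whole range, and most tumors lay at the low end. Cox8b was the only one of the 93 genes with a split into 2 levels by the rule used here, a gain in BIC above 10 for 2 normal distributions over 1 with a share of at least 0.1 of tumors in the smaller, which 1.97% of all genes met. The gain was 13.6, the levels lay 2.88 apart and the smaller held 11.3% of tumors. Other genes had larger gains but smaller shares under the limit, such as Cox7b with a gain of 142 and a share of 1.57%. The limit on the share thus decided which genes were called.

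Cox8b rose with the brown fat score by 0.98 per SD (SE 0.070, limma adjusted p = 1.6e-24). Ucp1, the defining marker of brown fat, ran between 4.99 and 11.7 with a median of 5.30, so most tumors lay near its lowest level. Animal 13986 had the highest brown fat score (5.09) and Ucp1 level (11.7), and its Cox8b level was 10.6. Animal 13973 had a score of 3.74 and Cox8b at 11.0, and animal 14028 had a score of 3.21 and Cox8b at 11.1. These 3 tumors had the highest Cox8b levels of all. High Cox8b was also seen at a low score: animal 14099 had Cox8b at 9.79 with a score of -0.46 and a Ucp1 level near the median.

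Cox7a1 ran between 7.03 and 9.40 with a median of 7.89 in numbered titles, and between 6.45 and 9.82 with a median of 7.48 in named titles. It rose with the brown fat score by 0.33 per SD (SE 0.037, limma adjusted p = 4.2e-13). Its highest level was in animal 13986. The ubiquitous partners had much smaller slopes that did not pass the test: 0.027 for Cox8a (SE 0.019, limma adjusted p = 0.47) and 0.032 for Cox7a2 (SE 0.018, limma adjusted p = 0.31).

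The difference between the partners was tested within each tumor as the log2 level of the tissue-specific minus that of the ubiquitous isoform, over 8 pairs and 7 scores, with a permutation test of 100000 draws and adjustment over the 56 tests. Cox8b minus Cox8a rose by 0.96 per SD of the brown fat score, and Cox7a1 minus Cox7a2 by 0.30. Both had the smallest p that the permutations can give, 1e-05 (adjusted p = 0.00011), as had their slopes on the adipocyte score, 0.91 and 0.22. In all, 10 of the 56 differences passed. The brown fat and adipocyte scores were themselves related (r = 0.75 over the tumors). With both scores in 1 model, Cox8b kept a slope of 0.65 on the brown fat score (SE 0.099, limma adjusted p = 1.5e-06) and 0.45 on the adipocyte score (SE 0.099, limma adjusted p = 0.00048). Cox7a1 kept a slope of 0.38 on the brown fat score (SE 0.055, limma adjusted p = 5.1e-07), and its slope on the adipocyte score was -0.061 (limma adjusted p = 0.54). Without the 2 tumors farthest from the median score the brown fat slopes were 0.89 for Cox8b and 0.21 for Cox7a1.

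**Figure D2:**
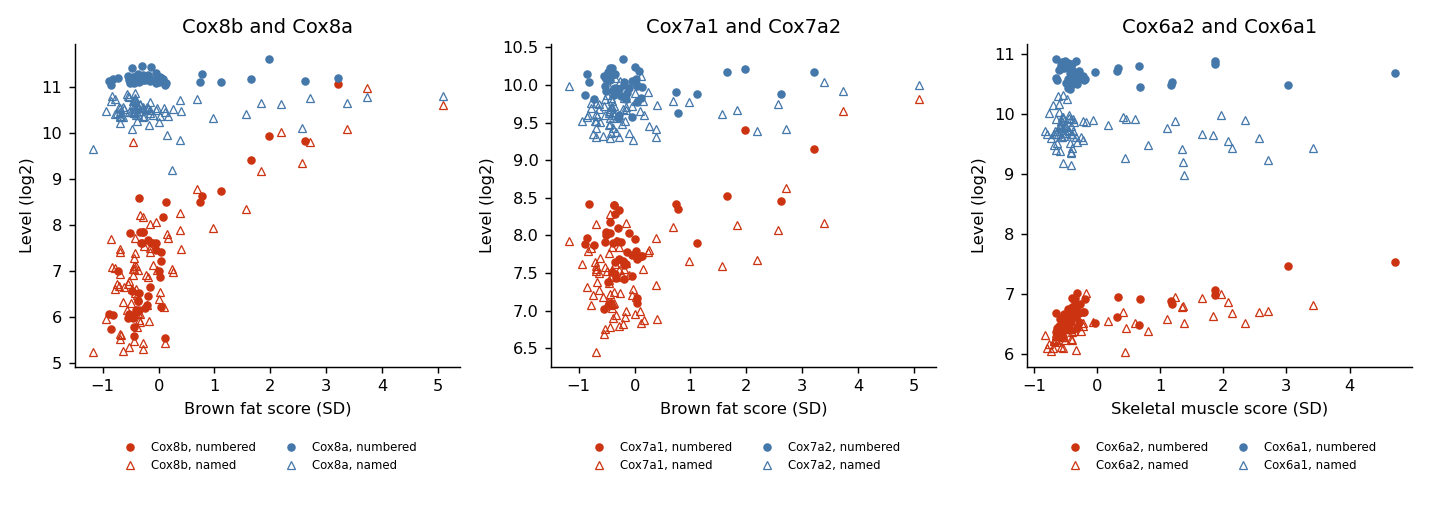
Log2 levels of Cox8b and Cox8a and of Cox7a1 and Cox7a2 against the brown fat score, and of Cox6a2 and Cox6a1 against the skeletal muscle score, both in SD; each point is 1 tumor (48 numbered, 79 named), red is the tissue-specific and blue the ubiquitous isoform, filled circles are numbered and open triangles named titles. Levels of different probesets cannot be set against each other; the slopes differ, with 0.98 for Cox8b, 0.33 for Cox7a1 and 0.16 for Cox6a2.

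Skeletal muscle markers went with other isoforms. Ckm, the creatine kinase of muscle, ran between 5.94 and 11.3 with a median of 6.53. Cox6a2, the form of subunit 6a made in heart and skeletal muscle, ran between 6.38 and 7.54 with a median of 6.67 in numbered titles, and between 6.04 and 7.02 with a median of 6.43 in named titles. It rose with the skeletal muscle score by 0.16 per SD (SE 0.016, limma adjusted p = 1.2e-15), with 0.19 in numbered and 0.14 in named titles alone. Its highest level, 7.54, was in animal 14090, which also had the highest skeletal muscle score (4.72) and the highest Ckm level (11.3). Cox6a2 minus the ubiquitous Cox6a1 rose by 0.21 (permutation p = 1e-05, the smallest possible, adjusted p = 0.00011).

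Cox7a1 and Cox8b, also known from muscle, did not pass with the skeletal muscle score. The slope was 0.013 for Cox7a1 (SE 0.047, limma adjusted p = 0.87) and 0.22 for Cox8b (SE 0.11, limma adjusted p = 0.20). With all 7 scores in 1 model Cox8b passed, with a slope of 0.19 (limma adjusted p = 0.045). In the mouse, Cox8b and Cox7a1 are made in both muscle and brown fat, while Cox6a2 is chiefly known from heart and skeletal muscle. The slope of Cox6a2 on the brown fat score was 0.0028 (SE 0.021, limma adjusted p = 0.97).

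The remaining isoforms moved little. Cox6b2, known from testis, rose with the skeletal muscle score by 0.055 (SE 0.014, limma adjusted p = 0.014), a call lost on quantile-normalized values (slope 0.029, limma adjusted p = 0.39). Another 3 differences passed with the skeletal muscle score: Cox6b2 minus Cox6b1 by 0.063 (permutation adjusted p = 0.0098), Cox8c minus Cox8a by 0.092 (permutation adjusted p = 0.0034) and Cox4i2 minus Cox4i1 by 0.069 (permutation adjusted p = 0.0034). In the last of these Cox4i2 had a slope of 0.013 (limma adjusted p = 0.51) while Cox4i1 fell by 0.055 per SD (limma adjusted p = 0.045). Cox8c, the testis form, had a slope of 0.035 (limma adjusted p = 0.098) and Cox8a one of -0.057 (limma adjusted p = 0.057). In each of these 3 pairs the isoform had a mean level below the median of all genes and its partner one above. The part of level in these differences was not tested.

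Cox4i2, a lung form tied to oxygen sensing, and Ndufa4l2, a paralog of Ndufa4 induced by hypoxia, were looked at for hypoxia and pericytes. Ndufa4l2 ran between 5.11 and 6.73 with a median of 5.65. Its slope was 0.046 on the hypoxia score (SE 0.018, limma adjusted p = 0.094) and 0.0089 on the pericyte score (limma adjusted p = 0.83). Cox4i2 ran between 6.01 and 6.94 with a median of 6.51, with slopes of 0.020 on hypoxia (limma adjusted p = 0.31) and 0.025 on pericytes (limma adjusted p = 0.23). Cox7b2, the testis form of subunit 7b, ran between 3.77 and 5.51 with a median of 4.02, and its highest value was in animal 14312, where Cox7b had its lowest. Of the 8 isoforms 6, all but Cox8b and Cox7a1, had mean levels below the median of all genes, against 2 of the 73 subunits, so small slopes of these 6 rest on dim probesets.

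**Figure D3:**
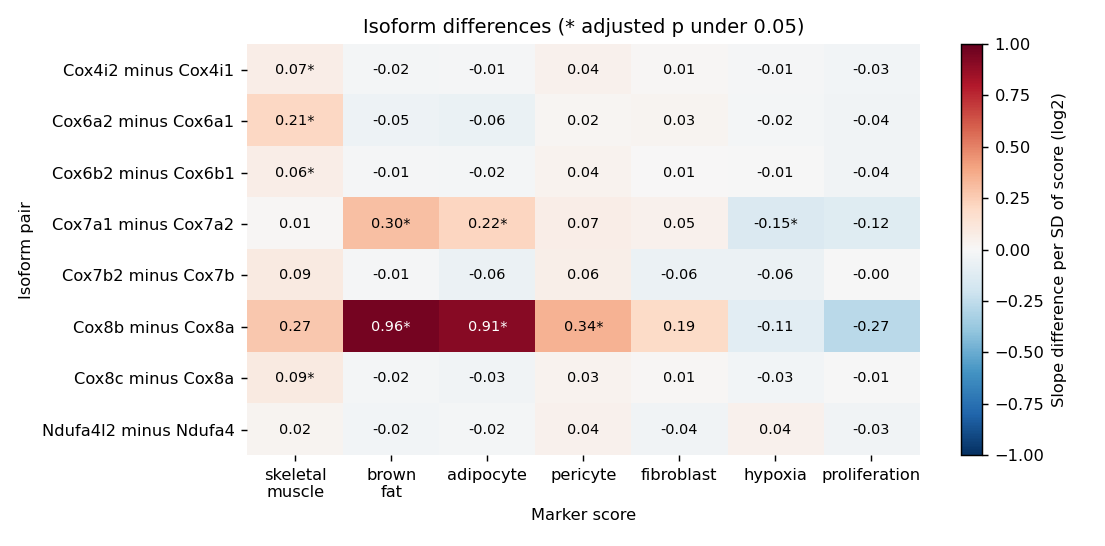
Slope per SD of each of 7 marker scores (columns) of the log2 difference between the tissue-specific and the ubiquitous isoform (rows); color and number give the slope and a star an adjusted permutation p under 0.05 over 56 tests. The stars lie on Cox8b and Cox7a1 for brown fat (0.96 and 0.30) and adipocytes, and on Cox6a2 (0.21), Cox8c, Cox4i2 and Cox6b2 for skeletal muscle, with 2 more for Cox8b on pericytes and Cox7a1 on hypoxia. The isoforms starred for skeletal muscle had mean levels below the median of all genes.

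Beyond the isoforms, ubiquitous subunits of all 5 complexes rose with the brown fat score. Of the 93 genes 22 rose (23.7%) and 0 fell by limma, where 4.39% of all genes rose and 2.38% fell, 6.77% in either direction. They were 20 of the 73 subunits and the isoforms Cox8b and Cox7a1. The median slope was 0.027 over the 93 genes and 0.0010 over all genes. All 22 slopes were above 0 within numbered and within named titles. Tested within numbered titles alone 9 of the 93 genes rose (9.68%) and 2 fell (2.15%), where 4.17% of all genes rose and 3.78% fell. Within named titles alone 13 rose (14%) and 0 fell, where 2.17% of all genes rose and 0.176% fell. The rank-transformed score gave 17 that rose (18.3%) and 6 that fell (6.45%), where 10.1% of all genes rose and 9.02% fell. On quantile-normalized values 31 rose and 0 fell, where 4.5% of all genes rose and 1.96% fell. The part of brown fat tissue in the samples in these slopes was not tested. Animal 14352, which held the lowest value of 20 of the 73 subunits, also had the lowest brown fat score (-1.18). It stayed in every alternative but numbered titles alone, and its part in these slopes was not tested.

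In complex II, 3 of 4 subunits rose. Sdhb, the iron-sulfur subunit, ran between 8.11 and 9.86 with a median of 9.12 and rose by 0.12 per SD (SE 0.018, limma adjusted p = 1.2e-07). Sdha, the flavoprotein that oxidizes succinate, ran between 9.79 and 11.7 with a median of 11.0 and rose by 0.11 (SE 0.019, limma adjusted p = 4.7e-06). Sdhd, a membrane anchor, rose by 0.076 (SE 0.019, limma adjusted p = 0.0044), and the other anchor, Sdhc, had a slope of 0.038 and did not pass. The slope of Sdhb was 0.075 in numbered and 0.14 in named titles.

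In complex I, 9 of 34 subunits rose. Ndufs1, the largest iron-sulfur subunit, rose by 0.10 (SE 0.027, limma adjusted p = 0.0058), a call lost without the 2 tumors farthest from the median score (slope 0.076, limma adjusted p = 0.056). Ndufv1, which binds NADH, ran between 8.73 and 10.2 with a median of 9.62 and rose by 0.10 (SE 0.015, limma adjusted p = 1.4e-07). The accessory subunit Ndufa10 rose by 0.090 (SE 0.013, limma adjusted p = 6.9e-08). The others were the core subunits Ndufs3 and Ndufs7 and the accessory subunits Ndufa1, Ndufa9, Ndufb3 and Ndufab1, the acyl carrier protein, with slopes between 0.057 and 0.088. The 34 slopes ran between -0.047 and 0.10, and 27 were above 0.

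In complex III, 3 of 8 subunits rose: Uqcrfs1, the Rieske iron-sulfur protein (0.083, SE 0.018, limma adjusted p = 0.00050), Uqcrq (0.082) and the core protein Uqcrc2 (0.058). In complex IV, 3 of 10 ubiquitous subunits rose: Cox5a (0.094, SE 0.017, limma adjusted p = 2.5e-05), Cox5b (0.051) and Cox6c (0.046), and all 10 slopes were above 0. In complex V, 2 of 17 rose: the catalytic beta subunit Atp5b (0.035, SE 0.0096, limma adjusted p = 0.011) and the gamma subunit Atp5c1 (0.039, SE 0.012, limma adjusted p = 0.029). None of the 11 assembly factors passed, and their median slope was 0.0021. As 4.39% of all genes rose, none of 11 is close to the share of all genes.

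**Figure D4:**
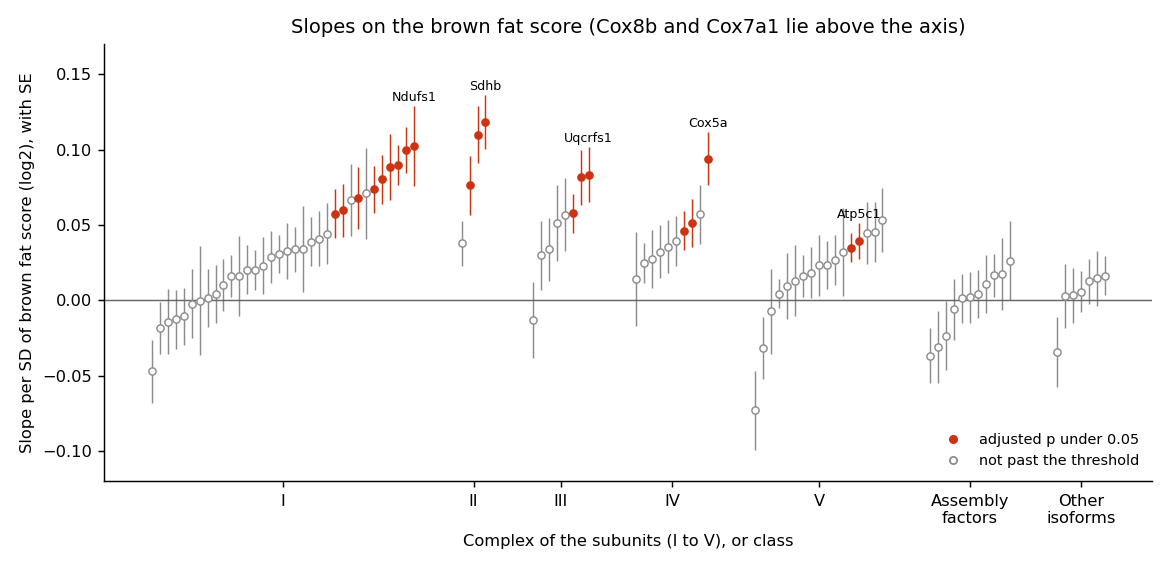
Slope per SD of the brown fat score (log2, bars are SE) of each gene by complex, with assembly factors and the other isoforms (Cox7a2l with them) at the right; filled red points passed limma at an adjusted p under 0.05 over all genes. Cox8b (0.98) and Cox7a1 (0.33) are off the scale. Of 73 subunits 20 passed, led by Sdhb (0.12), and none of 11 assembly factors did, where 4.39% of all genes rose.

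The adipocyte score, read from adipocyte markers such as Adipoq and Lep, gave fewer calls. Its markers are not of white fat alone: all 7 rose with the brown fat score, with a median slope of 0.90. Of the 93 genes 13 rose (14.0%) and 0 fell by limma, where 7.62% of all genes rose and 6.53% fell, 14.1% in either direction. Cox8b led with a slope of 0.94 (SE 0.075, limma adjusted p = 3.0e-21), followed by Cox7a1 (0.22), Sdhb (0.11), Sdha (0.082) and Ndufv1 (0.081). With both fat scores in 1 model, 8 genes rose with brown fat: Cox8b, Cox7a1, Sdhd (0.12), Cox5a (0.11), Sdha (0.11), Uqcrq (0.099), Ndufv1 (0.090) and Ndufa10 (0.079). In that model only Cox8b rose with adipocytes. Sdhb passed with neither (0.087 on brown fat, limma adjusted p = 0.10). Within numbered titles alone the adipocyte score gave 2 genes that rose (2.15%) and 2 that fell (2.15%), where 5.03% of all genes rose and 2.59% fell, so the share that rose was below that of all genes there.

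Other genes of mitochondria were read from lists made with earlier results of these data known. Of 12 measured enzymes of the tricarboxylic acid cycle, 9 rose with the brown fat score and 9 with the adipocyte score, with median slopes of 0.086 and 0.062. Of all genes, 4.39% rose with brown fat and 7.62% with adipocytes. The largest with brown fat were Sucla2 (0.17) and Idh3a (0.15). Of 77 mitochondrial ribosomal proteins and 58 cytosolic ribosomal proteins, 0 rose with brown fat by limma, and 3 of the cytosolic ones fell. As only 4.39% of all genes rose and 2.38% fell, few would be called in lists of this size. Among 16 regulators of mitochondrial biogenesis, Ppara (0.30) and Ppargc1b (0.096) rose with brown fat, while the slope of Ppargc1a, a coactivator known from brown fat, was 0.028 (SE 0.055, limma adjusted p = 0.85). Among 23 assembly factors with other names, Foxred1, which helps assemble complex I, rose (0.12). The cytochrome c genes did not pass, nor did Cyc1, the cytochrome c1 subunit of complex III, whose symbol the rule does not cover. The slope was 0.055 for both Cycs and Cyc1. Only 2 of the subunits encoded by mitochondrial DNA were measured, ND3 (slope 0.032) and COX2 (0.010), and neither passed.

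With the skeletal muscle score, 2 of the 93 genes rose (2.15%) and 5 fell (5.38%) by limma, where 2.54% of all genes rose and 1.39% fell, 3.93% in either direction. The 2 that rose were Cox6a2 and Cox6b2. Those that fell were Atp5g2, a c-ring subunit of ATP synthase (-0.083, SE 0.019, limma adjusted p = 0.0033), Ndufa2, Sdhaf1, Cox4i1 and Ndufb5, and all 5 were lost on quantile-normalized values, where only Cox6a2 passed. All 8 tissue-specific isoforms had slopes above 0, and 3 of 73 subunits did. Level went with this split, as 6 of the 8 isoforms and 2 of the 73 subunits lay below the median of all genes. The median slope over all genes was 0.0075, and -0.017 with dim genes left out. The part of level in the split was not tested.

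Hypoxia markers moved few of the genes. With the hypoxia score 2 rose (2.15%) and 2 fell (2.15%), where 4.23% of all genes rose and 4.29% fell, 8.51% in either direction. Cox5a (0.057, limma adjusted p = 0.041) and Cox6c (0.041, limma adjusted p = 0.035) rose. Cox7a1 (-0.14, limma adjusted p = 0.033) and Ndufaf3, a complex I assembly factor (-0.058, limma adjusted p = 0.014), fell. The call of Cox7a1 was lost without the 4 arrays of lowest correlation (-0.13, limma adjusted p = 0.065). None of the 4 genes passed within numbered or within named titles alone. In the same tumors 9 of 9 measured glycolysis genes rose with the score, led by Pgk1 (0.31, SE 0.021, limma adjusted p = 3.3e-26). Cox7a1 minus Cox7a2 fell by 0.15 per SD (permutation adjusted p = 0.019).

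With the pericyte score, 1 of the 93 genes rose (1.08%) and 7 fell (7.53%), where 6.97% of all genes rose and 3.28% fell, 10.3% in either direction. Cox8b rose (0.32, SE 0.11, limma adjusted p = 0.044), a call lost without the 2 tumors farthest from the median score (0.19, limma adjusted p = 0.29). Atp5g1, a c-ring subunit, fell most (-0.083, limma adjusted p = 0.021), with Atp5pb, Cox7a2l, Ndufb2, Ndufb7, Ndufb5 and Atp5j. Within named titles alone none passed. With the fibroblast score, 0 rose and 1 fell (1.08%) by limma, where 6.69% of all genes rose and 3.31% fell, 10% in either direction. It was Sdhaf1, which helps insert the iron-sulfur clusters of Sdhb (-0.072, limma adjusted p = 0.020).

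Proliferation markers gave calls whose number and direction varied with the arrays used and the scaling. With the proliferation score 10 of the 93 genes rose (10.8%) and 4 fell (4.3%), where 18.3% of all genes rose and 14.1% fell, 32.4% in either direction. On quantile-normalized values 3 rose and 11 fell, where 14.9% of all genes rose and 15.2% fell. Without the 4 arrays of lowest correlation 26 rose (28%) and 1 fell (1.08%), where 13.9% of all genes rose and 12% fell. With both changes 15 rose (16.1%) and 0 fell, where 12.1% of all genes rose and 10.6% fell. With those 4 arrays included, more rose than fell on the deposited values, and more fell than rose on quantile-normalized values. Without the 2 tumors farthest from the median score 18 rose (19.4%) and 0 fell, where 12.4% of all genes rose and 9.6% fell. Within numbered titles alone 2 rose (2.15%) and 5 fell (5.38%), where 15.5% of all genes rose and 12.6% fell. Within named titles alone 9 rose (9.68%) and 0 fell, where 11.1% of all genes rose and 8.1% fell. The score had its lowest values in 2 of those 4 arrays, -7.05 in animal 14095 and -5.07 in animal 14094, and its median was 0.10.

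Ndufaf2, a complex I assembly factor, kept its call under every alternative run. It ran between 6.08 and 7.42 with a median of 6.75 and rose with proliferation by 0.12 per SD (SE 0.016, limma adjusted p = 2.1e-10). Others that rose included Sdhaf4, which assists the flavoprotein Sdha (0.084, limma adjusted p = 0.0018), Atp5g1 (0.070), Ndufs8 (0.064) and Ndufa2 (0.056), and the last 3 did not pass on quantile-normalized values. Those that fell were Cox8b (-0.28), Cox7a1 (-0.13), Ndufa1 (-0.10) and Ndufa6 (-0.064), and none of these 4 passed without the 4 arrays. With the 4 arrays included, all 11 assembly factors had slopes above 0, with a median of 0.024, and all 8 isoforms had slopes below 0. Their signs without the 4 arrays are not given here. The median slope over all genes was -0.0031, and 0.022 with dim genes left out, and the part of level was not tested. Of 77 mitochondrial ribosomal proteins 55 rose with proliferation and 0 fell, led by Mrpl45 (0.17), and 29 of 58 cytosolic ones rose. In the same fit 18.3% of all genes rose and 14.1% fell. These counts, too, are with the 4 arrays included.

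**Figure D5:**
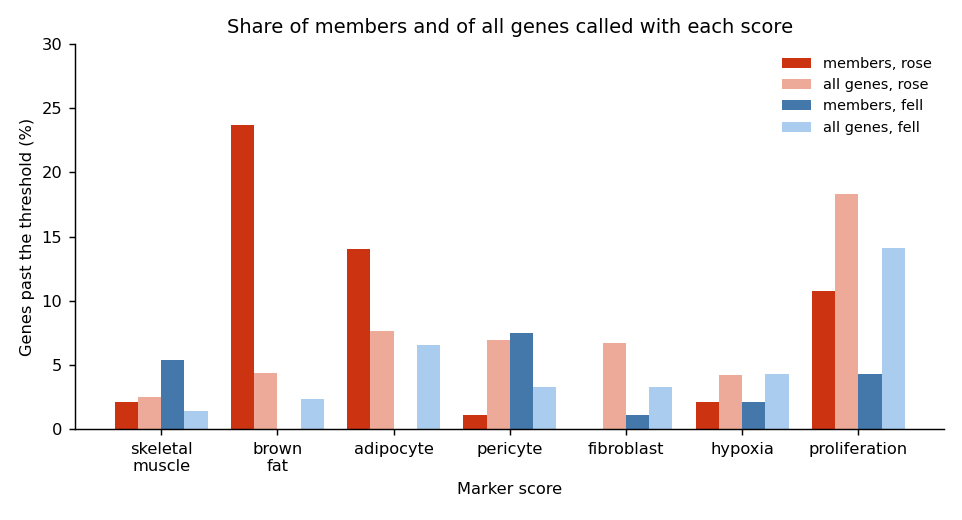
Percent of the 93 genes (dark bars) and of all genes tested (pale bars) that rose (red) or fell (blue) with each marker score by limma at an adjusted p under 0.05. The share of the 93 genes that rose stands above that of all genes for brown fat (23.7% and 4.39%) and adipocytes (14.0% and 7.62%) and below it for proliferation (10.8% and 18.3%), an order that reversed without the 4 arrays of lowest correlation (28% and 13.9%).

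As a description, the mean correlation over 2628 pairs of the 73 subunits was 0.23, and over all pairs of genes it was 0.035. On quantile-normalized values the means were 0.14 and 0.017. All pairs share the arrays and their scaling. Other sets of related genes had means close to it or larger: 0.21 within the mitochondrial ribosome, 0.24 within the cytosolic ribosome, 0.28 within the tricarboxylic acid cycle and 0.36 within glycolysis. Subunits of different complexes had a mean of 0.23 over 1852 pairs. Within a complex the mean was 0.19 for complex I, which held 561 of the 776 pairs of the same complex, 0.31 for complex II over 6 pairs, 0.24 for complex III, 0.27 for complex IV and 0.26 for complex V. The closest pair was Atp5a1, the alpha subunit of ATP synthase, with Atp5pb (0.88). Both had their lowest value in animal 14312, and without the 4 arrays of lowest correlation the pair had 0.69, while Atp5pb with Ndufb6 had the highest value, 0.84. Cox4i1, the main regulatory subunit of complex IV, correlated most closely with the mean of the other subunits (0.78), and without the 4 arrays Ndufv1 did (0.78), with Cox4i1 at 0.71.

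The mean correlation of the subunits with the 11 assembly factors was -0.0043 over 803 pairs, and 0.081 without the 4 arrays. With the 8 tissue-specific isoforms it was -0.014 over 584 pairs, and 0.0058 without them. Among the isoforms, Cox7a1 (0.18) and Cox8b (0.17) had means above 0. Those of Cox7b2 (-0.24), Cox6b2 (-0.13), Cox8c (-0.12) and Cox6a2 (-0.091) were below 0, with -0.14 for Cox7b2 without the 4 arrays. The subunits had a mean correlation of 0.21 with the tricarboxylic acid cycle genes, 0.13 with the mitochondrial ribosome, 0.11 with the cytosolic ribosome and 0.070 with glycolysis genes.

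Between the title series, 81 of the 93 genes were higher and 3 lower in numbered titles by limma, where 69.6% of all genes were higher and 5.72% lower. The median difference, numbered minus named, was 0.43 over the 93 genes and 0.18 over all genes. On quantile-normalized values 58 were higher and 14 lower, where 27.3% of all genes were higher and 33% lower, and the median differences were 0.20 and -0.017. Cox6a1 differed most, averaging 10.7 in numbered and 9.71 in named titles (difference 0.96, SE 0.041, limma adjusted p = 2.4e-45). Cox5a averaged 9.75 in numbered and 8.89 in named titles. Ndufa13, Ndufaf3 and Ndufa9 were lower in numbered titles, with -0.23 for Ndufa13. Cox8b did not differ past the threshold (0.10, SE 0.23, limma adjusted p = 0.70). What the title series stand for is not given in the labels, and its part in these differences was not tested. No slope of the 93 genes on any of the 7 scores differed between the title series by the interaction term of limma. That term passed for few genes of any kind, 273 of 19926 with proliferation and at most 5 with any other score. The 93 genes therefore do not stand apart from all genes here.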

How the data were processed

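Total RNA of whole mammary tumors was hybridized to Affymetrix Mouse Gene 1.0 ST arrays, 1 array a sample. The values deposited by the authors were log2 intensities, named as RMA in the submitters' processing notes. RMA as commonly run corrects background, equalizes array distributions and summarizes each probeset. The deposited values did not share 1 distribution over all arrays. Array medians averaged 6.18 in numbered titles, 5.96 in named titles and 5.45 in titles ending in r. Its version was not given in the sources used here. Intensities gave no counts, so the number of tumors limits the precision. Of 35556 probesets, 21789 named 1 gene, 1621 several and 12146 none in the platform table, which gave 19938 genes; 18 of the 93 OXPHOS genes had several probesets. The labels do not say whether 2 arrays share a batch, and p-values measure the spread between tumors, 1 an animal.

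Marker scores were the mean z value of a list within the title series. Slopes were fitted in limma 3.58.1 (R 4.3.3; lmFit, eBayes with trend) with the title series as a term, over all genes outside the list, with Benjamini-Hochberg adjustment and a threshold of 0.05. Isoform differences were tested by a 2-sided permutation test with 100000 draws within the title series (Python 3.11.15, numpy 2.4.6, scipy 1.17.1). Both steps were tested on simulated data. The genes and lists were chosen with earlier results of these data known. The text names, for each score, up to 5 genes of largest slope per direction that passed and kept their sign between title series, both isoforms of each pair, the 8 genes of largest and 5 of smallest SD, up to 3 genes of each other list, and any of the 93 genes; Ppargc1a, Cycs, Cyc1, ND3 and COX2 were named after their values were seen. Alternatives were other sets of arrays, quantile normalization, rank-transformed scores, no title series term, all scores in 1 model, the mean of probesets and a filter on dim genes. Fits with both fat scores, and quantile-normalized values without the 4 arrays of lowest correlation, were added after seeing the data.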

Additional observations from a re-analysis of the deposited data

How the results depend on the processing

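No paired analysis was possible because there was 1 group of tumors with no numbers shared between groups. The calls of Cox8b and Cox7a1 with the brown fat score, of Cox6a2 with skeletal muscle and of Ndufaf2 with proliferation held under every alternative that kept the gene. The counts of the 93 genes called moved by over 1.5 times as follows, with the percent of all genes called in parentheses; the cause was not tested. With suffix r arrays included, brown fat gave 34 (10.5%), pericytes 29 (54.5%), fibroblasts 0 (8.45%) and hypoxia 15 (10.7%). Without the 4 arrays of lowest correlation, adipocytes gave 20 (14.5%), fibroblasts 5 (14.6%) and proliferation 27 (25.9%), and 17 isoform differences passed. Without the 2 farthest tumors, pericytes gave 5 (9.06%). In numbered titles alone, skeletal muscle gave 2 (0.984%), brown fat 11 (7.95%), adipocytes 4 (7.62%), pericytes 1 (4.36%), hypoxia 0 (1.33%) and proliferation 7 (28.1%). In named titles alone, skeletal muscle gave 4 (1.31%), brown fat 13 (2.35%), pericytes 0 (2.34%), fibroblasts 0 (3.86%), hypoxia 0 (2.79%) and proliferation 9 (19.2%). On quantile-normalized values, skeletal muscle gave 1 (1%), adipocytes 25 (14.8%), pericytes 3 (9.73%) and fibroblasts 5 (11.5%). With no title series term, skeletal muscle gave 2 (3.26%), pericytes 0 (8.15%), fibroblasts 0 (7.31%), hypoxia 58 (25.6%) and proliferation 33 (32.5%), and the mean correlation of subunit pairs was 0.49. With rank-transformed scores, skeletal muscle gave 27 (36.9%), fibroblasts 4 (11.2%) and hypoxia 11 (12.1%). With all 7 scores in 1 model, brown fat gave 5 (0.843%), adipocytes 1 (3.36%), pericytes 29 (23.5%), fibroblasts 27 (34.4%) and hypoxia 31 (36.7%), and 16 isoform differences passed. Without dim genes, skeletal muscle gave 2 (2.18%) and fibroblasts 3 (13.3%). With both fat scores in 1 model, brown fat gave 8 (0.998%) and adipocytes 1 (6.32%). At a gain in BIC above 0, 5 of the 93 genes had 2 levels. The share of all genes at that gain is not given here, so this count cannot be set against it. Of single slopes, 4 turned sign, none of them then past the threshold by limma: Cox7a1 on adipocytes with all 7 scores (-0.13) and with both fat scores (-0.061), Sdha on adipocytes with both fat scores (-0.0013), and Ndufa6 on proliferation with no title series term (0.012). Over the other single slopes and alternatives, 416 values kept direction and side of the threshold, 138 no longer passed and 4 newly passed.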

Other observations

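The 6 arrays with titles ending in r were left out above. All 93 OXPHOS genes had a lower median over these 6 arrays than over the 79 named titles, by a median of -0.50, and 19317 of all 19938 genes did, by a median of -0.48. Animals 14050 and 14352 had an array of each kind. In animal 14050 the 93 genes correlated at 0.989 between its arrays, with a median difference (suffix r minus other) of -0.43 over the 93 genes and -0.47 over all genes. In animal 14352 the correlation was 0.986 and the differences were -0.45 and -0.46. Cox8b, the isoform of widest spread, read 5.53 on the suffix r array and 6.21 on the other in animal 14050, and 5.13 and 5.24 in animal 14352. Ndufa13, an accessory subunit of complex I, ran between 7.26 and 7.71 on the 6 arrays, all below its lowest named value of 8.60.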
